A study of Rattus norvegicus with 15 samples.

Results

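The 9 genes described here are classical targets or partners of the tumour suppressor p53: Cdkn1a, Phlda3, Ccng1 and Gadd45a (arrest and stress), Mdm2 (feedback on p53), Bcl2l1 (survival), and Bad, Bax and Bbc3 (death). They were chosen by gene name, with earlier results of these data known, and were found on the array through the accession of each probe, which was matched to a rat gene symbol. All 9 were measured, by 16 probes, of which 15 were bright enough to test. The array carried 41012 probes, of which 21011 were tested, and 8378 named genes had a tested probe.

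Female Sprague-Dawley rats were the source of 15 mammary tumours, whose RNA was hybridised to one-colour Agilent rat arrays. Rats of the zinc-deficient group (3 mg of zinc per kg of chow), the zinc-adequate group (35 mg/kg) and the zinc-supplemented group (180 mg/kg) gave 5 tumours each. The diet was fed to 16 dams per group from day 10 of gestation and then to their daughters after weaning on day 21, until day 51. On day 51 every rat, those of the adequate group included, received 50 mg/kg of the mammary carcinogen DMBA into the stomach, and from then on all ate adequate chow until the tumours were taken at 180 days. The diets therefore differed before the carcinogen and not while the tumours grew. The tumours were of tubular or papillary type. A group labelled as negative control was taken to be the adequate diet, the others being named for their chows. A free-text label speaks of mammary gland at day 21. The tissue and age labels, which give tumours at 180 days, were followed. Whether 5 tumours of a diet mean 5 animals or 5 litters is not stated in the labels, and p-values therefore rest on the spread between tumours only.

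The p53 protein is a transcription factor that is held low by the ubiquitin ligase Mdm2 and accumulates after DNA damage. It then switches on genes that stop the cell cycle, such as Cdkn1a, and genes that permeabilise mitochondria, such as Bax and Bbc3, and it also switches on Mdm2, which closes the loop. Whether a damaged cell arrests or dies depends in part on the balance between death members of the BCL2 family and survival members such as the BCL-xL protein encoded by Bcl2l1. DMBA is metabolised to products that bind DNA, and p53 itself is a zinc-binding protein.

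The starts of the genes are shown because p53 acts through a short DNA element. The members differ in whether the window before their annotated start holds an exact half-site, which is only a part of that element. The windows are the 250 bases before each start in a RefSeq table of assembly GRCr8, which held 7 of the 9 members in 10 windows, 4 of them for Bcl2l1. Bax and Bbc3 had no entry. An exact p53 half-site (C, an A or T at both central places, and G, with 3 purines before and 3 pyrimidines after) was searched, which reads as the same pattern on both strands. Of all 33469 windows of that length in the table, 6.64% held one. Of the 10 windows of the members 3 did, each of a different member. They are printed 5′ to 3′ on the strand of the gene, with the half-site in capitals. The Cdkn1a sequence is chr20:7150682-7150819 on the plus strand and is limited to the bases outside the annotated gene, the Ccng1 sequence is chr10:25684877-25685126 on the minus strand, and the Gadd45a sequence is chr4:97486800-97487049 on the minus strand.
Cdkn1a: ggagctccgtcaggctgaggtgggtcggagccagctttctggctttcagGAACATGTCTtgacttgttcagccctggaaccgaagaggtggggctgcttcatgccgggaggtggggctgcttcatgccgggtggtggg
Ccng1: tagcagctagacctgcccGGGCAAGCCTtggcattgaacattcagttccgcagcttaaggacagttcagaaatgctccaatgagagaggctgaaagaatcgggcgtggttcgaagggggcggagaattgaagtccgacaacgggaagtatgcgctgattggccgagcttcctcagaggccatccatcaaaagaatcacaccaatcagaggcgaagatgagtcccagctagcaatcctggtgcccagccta
Gadd45a: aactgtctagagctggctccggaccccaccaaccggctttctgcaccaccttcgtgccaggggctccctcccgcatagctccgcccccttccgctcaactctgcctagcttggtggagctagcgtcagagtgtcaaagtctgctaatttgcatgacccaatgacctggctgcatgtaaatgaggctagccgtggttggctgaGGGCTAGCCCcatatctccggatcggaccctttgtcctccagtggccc
The Cdkn1a half-site GAACATGTCT begins 201 bases before the start, the Ccng1 half-site GGGCAAGCCT begins 232 bases before it, and the Gadd45a half-site GGGCTAGCCC begins 48 bases before it. The windows of Phlda3, Mdm2, Bcl2l1 and Bad held no exact match. Those of Mdm2, Bad and 3 of the 4 Bcl2l1 starts lie wholly inside the annotated gene. The letters GGGCGG, the core of the GC box, stood on either strand in 4 of the 10 windows of the members, against 30.5% of all windows. TATAAA stood in 0 of the 10, against 12.9%. A match of letters is no evidence of binding, and a missing match says only that these letters are not in this window.

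Each level given below is the log2 of the spot signal, corrected for background by the scanner software, minus the 75th percentile of the same array. A level of 0 is therefore the brightness that 75% of the probes did not reach, and a level says nothing about the amount of one gene relative to another. Where more than 1 probe of a gene was tested, the brightest on average is shown. The 9 shown probes were well above background on all 15 arrays, except that of Bax, which was so on 14. Diets were compared with limma in 1 model over the 15 arrays, with p-values adjusted by Benjamini-Hochberg over all 21011 tested probes and a threshold of 0.05.

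Every one of the 4 slides held all 3 diets, and of 43379 spots per array 13854 to 24009 were well above background. The 3 dimmest arrays, with the fewest such spots, were those of deficient replicate 4 (13854), adequate replicate 2 (16214) and deficient replicate 1 (16679). Luminal epithelial genes, 11 of 13 listed markers measured, averaged a level of 3.18 ± 0.18 in deficient, 3.26 ± 0.12 in adequate and 3.19 ± 0.13 in supplemented tumours (SD, n = 5 each). Of the 13, Foxa1 was well above background on 5 of the 15 arrays, and Esr1 and Elf3 were so on 2 each and were not tested. Markers of other cell types varied between tumours. The erythrocyte list, 4 of 7 markers measured, had mean levels from 0.85 to 3.02 in deficient, from -1.39 to 1.35 in adequate and from -1.16 to -0.19 in supplemented tumours. Its mean was 1.496 in deficient, 0.12 in adequate and -0.63 in supplemented tumours. It was highest in the diet in which Cdkn1a, Bad, Bcl2l1, Ccng1, Phlda3 and Mdm2 had their lowest means. Gadd45a, Bax and Bbc3 had their lowest means in supplemented tumours, where the list was lowest. Of its markers, Alas2 was well above background in 4 deficient, 3 adequate and 0 supplemented tumours, and Ahsp in 4, 2 and 1. Over the 15 tumours the list mean correlated with Cdkn1a at r = -0.47 and with Bad at r = -0.50 (adjusted permutation p = 0.718 for both). These values were 0.05 and -0.03 after the diet means were removed and 0.50 and 0.12 after diet and slide. With Bcl2l1, Ccng1, Phlda3 and Mdm2 the list mean had r from -0.43 to -0.39 (adjusted permutation p = 0.790 for each). After diet these were -0.15, -0.09, -0.28 and -0.14. With Bbc3 the list mean had r = 0.40, with Gadd45a 0.02 and with Bax -0.11 (adjusted permutation p = 0.790, 0.960 and 0.934). For Bbc3 r was 0.38 after diet and 0.72 after diet and slide. The list of dividing cells, 10 of 12 measured, ran from -0.66 to 0.94 in deficient, from -0.01 to 1.60 in adequate and from -0.99 to 0.99 in supplemented tumours. All 10 were lower on average in deficient than in adequate tumours, with a median log2 difference of -0.44, and all 10 were lower in supplemented than in adequate tumours, with a median of -0.67. None of the 10 passed the test in limma (lowest adjusted p = 0.987 and 1.00). The part of these cells in the diet differences below was not tested. In these bulk RNAs, fewer cells of a type and less RNA per cell cannot be told apart.

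No member passed the test in any comparison of diets. Between deficient and adequate tumours limma called 0 of the 9 members and 0 of 21011 probes (0%). At an unadjusted p under 0.05 it had 4 members, all lower in deficient tumours (Bcl2l1, Cdkn1a, Bad and Phlda3), and 822 probes (3.91%). The log2 difference was below 0 for 8 of the 9 members, with a median of -0.42, where 50.7% of all tested probes were below 0 and their median was -0.00457. Between supplemented and adequate tumours 0 members and 0 probes (0%) were called. At an unadjusted p under 0.05 there were 0 members and 415 probes (1.98%), and 7 members were lower, with a median of -0.21, against 51.2% of probes. Between supplemented and deficient tumours 0 members and 0 probes (0%) were called. There 2 members, Cdkn1a and Bad, were higher in supplemented tumours at an unadjusted p under 0.05, beside 1482 probes (7.05%). In that comparison 3 members were lower, with a median over the 9 of 0.28, against 50.1% of probes. The tumours of 2 diets did not overlap for 1 member in 1 comparison, Bcl2l1 between deficient and adequate tumours, where 0.219% of probes were so with deficient lower and 0.171% with deficient higher. For supplemented against adequate tumours 0 members were separated in this way, where 0.209% of probes were so with supplemented higher and 0.148% with supplemented lower. For supplemented against deficient tumours 0 members were separated, where 0.857% of probes were so with supplemented higher and 0.643% with supplemented lower. The comparisons share tumours, so their values are not independent of each other.

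**Figure D1:**
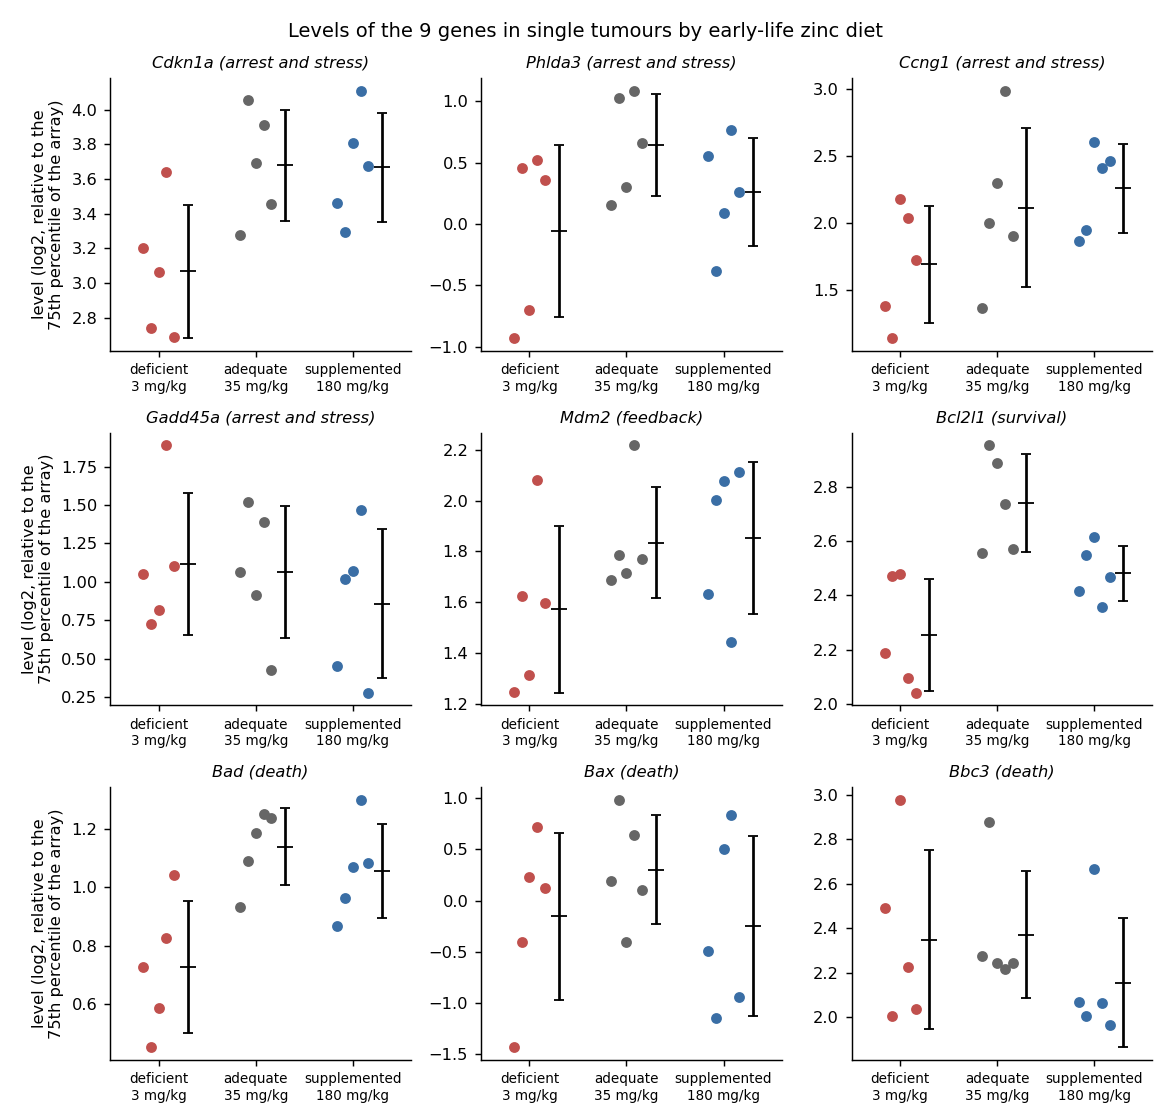
Level of each of the 9 genes in every tumour (log2 signal over the array's 75th percentile), by early-life diet in order of dietary zinc. Points are tumours in the order of their replicate numbers, and bars are the mean ± SD of 5. Bcl2l1 is the 1 gene whose deficient tumours (2.04 to 2.48) all lie below the adequate ones (2.56 to 2.95), while the Bax points spread over 2.42 log2 units and overlap in all 3 diets.

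Among the arrest genes, Cdkn1a encodes the cyclin-dependent kinase inhibitor p21 and is the best known transcriptional target of p53. In the deficient tumours its level was 3.20, 2.74, 3.06, 3.64 and 2.69 (replicates 1 to 5), against 3.28, 4.06, 3.69, 3.91 and 3.45 in the adequate tumours. In the supplemented tumours it was 3.46, 3.30, 3.80, 4.11 and 3.68. Of the deficient tumours 4 lay below every adequate and every supplemented tumour, and deficient replicate 4 lay among them. The mean was 3.07 ± 0.39 in deficient and 3.68 ± 0.32 in adequate tumours (SD, n = 5 each). The log2 difference was -0.61 (SE 0.22, 95% interval from -1.08 to -0.15), which is 0.654 times the adequate level. Supplemented tumours averaged 3.67 ± 0.31, which differed from adequate tumours by -0.01 (95% interval from -0.47 to 0.45) and from deficient tumours by 0.60 (SE 0.22, 95% interval from 0.14 to 1.07). In limma the adjusted p was 0.987 for deficient against adequate and 0.678 for supplemented against deficient. The order of the diets was thus deficient, then supplemented and adequate side by side, and none of these steps passed the test.

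The p21 probe is printed in 10 spots on each array, which gives the spread from spot to spot. The SD between the 10 spots of an array had a median of 0.079, and the SD between tumours of a diet was 0.34. Each tumour has 1 array, so the spread from labelling and hybridisation cannot be told apart from that between tumours. On each of the 4 slides the deficient tumours were lower than the adequate ones, by differences of -1.31 to -0.08, and the supplemented were higher than the deficient, by 0.26 to 0.99. A second Cdkn1a probe, dimmer and in 1 spot, had levels of -1.15, -1.32, -2.94, -1.81 and -2.52 in deficient and -1.04, -0.98, -1.26, -0.89 and -1.34 in adequate tumours. In supplemented tumours it had -1.06, -1.003, -0.88, -0.57 and -1.18. Here deficient replicates 3, 4 and 5 were far below all others, and replicates 3 and 4 were not well above background. Its log2 difference was -0.85 between deficient and adequate tumours (limma, adjusted p = 0.987) and 1.01 between supplemented and deficient tumours (limma, adjusted p = 0.661). With the authors' deposited values in place of the scanner signals, the difference between supplemented and deficient tumours of the main probe was 0.36.

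Ccng1 encodes cyclin G1, a p53 target that recruits a phosphatase to Mdm2. Its level was 1.38, 1.14, 2.18, 2.04 and 1.73 in deficient, 1.37, 2.00, 2.30, 2.99 and 1.91 in adequate, and 1.87, 1.95, 2.61, 2.41 and 2.47 in supplemented tumours. Deficient replicates 1 and 2 and adequate replicate 1 were the low tumours, and the groups overlapped. The log2 difference was -0.42 between deficient and adequate tumours (95% interval from -1.02 to 0.17) and 0.57 between supplemented and deficient tumours (95% interval from -0.03 to 1.16). Supplemented and adequate tumours differed by 0.15 (95% interval from -0.45 to 0.74). The lowest adjusted p of the 3 differences in limma was 0.713. Without adequate replicate 4, its highest tumour, the first difference was -0.20. Its second probe gave -0.29 for deficient minus adequate and 0.65 for supplemented minus deficient (limma, adjusted p = 0.701).

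Phlda3 encodes a pleckstrin homology protein that restrains Akt signalling at the membrane. In deficient tumours it formed a low pair, replicates 1 and 3 at -0.93 and -0.70, and a higher set, replicates 2, 4 and 5 at 0.46, 0.53 and 0.36. In adequate tumours it was 0.16, 1.03, 0.30, 1.09 and 0.66, and in supplemented tumours 0.56, -0.38, 0.09, 0.77 and 0.26. The low pair lay below every other tumour, and the remaining deficient tumours lay inside the adequate range. The log2 difference between deficient and adequate tumours was -0.70 (SE 0.32, 95% interval from -1.37 to -0.03, limma, adjusted p = 0.987). With array weights it was -0.41. Supplemented tumours differed from adequate ones by -0.39 (95% interval from -1.05 to 0.28) and from deficient ones by 0.32 (95% interval from -0.35 to 0.99). The deficient minus adequate difference was below 0 on all 4 slides, from -1.09 to -0.39.

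Gadd45a encodes a stress protein that acts in growth arrest and DNA repair. Its level ran from 0.73 to 1.89 in deficient, from 0.43 to 1.52 in adequate and from 0.28 to 1.47 in supplemented tumours, so that the 3 diets covered nearly the same range. Deficient tumours differed from adequate ones by 0.05 (95% interval from -0.53 to 0.64), a sign that turned under 10 of 29 alternative settings. Supplemented tumours differed from adequate ones by -0.21 (95% interval from -0.79 to 0.38) and from deficient ones by -0.26 (95% interval from -0.85 to 0.33). Gadd45a was therefore the 1 arrest gene whose mean was not lower in deficient tumours.

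Mdm2, the ubiquitin ligase that marks p53 for destruction, was at 1.25, 1.63, 1.31, 2.08 and 1.60 in deficient and at 1.69, 1.79, 1.71, 2.22 and 1.77 in adequate tumours. In supplemented tumours it was 1.63, 2.00, 2.08, 1.44 and 2.11. Of the deficient tumours 4 lay below all adequate ones and replicate 4 lay above 4 of them. The log2 difference of -0.26 between deficient and adequate tumours had a 95% interval from -0.67 to 0.15, supplemented and adequate tumours differed by 0.02 (95% interval from -0.39 to 0.43), and supplemented and deficient tumours by 0.28 (95% interval from -0.13 to 0.69). Its second probe gave -0.07, 0.08 and 0.15 for the same differences.

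**Figure D2:**
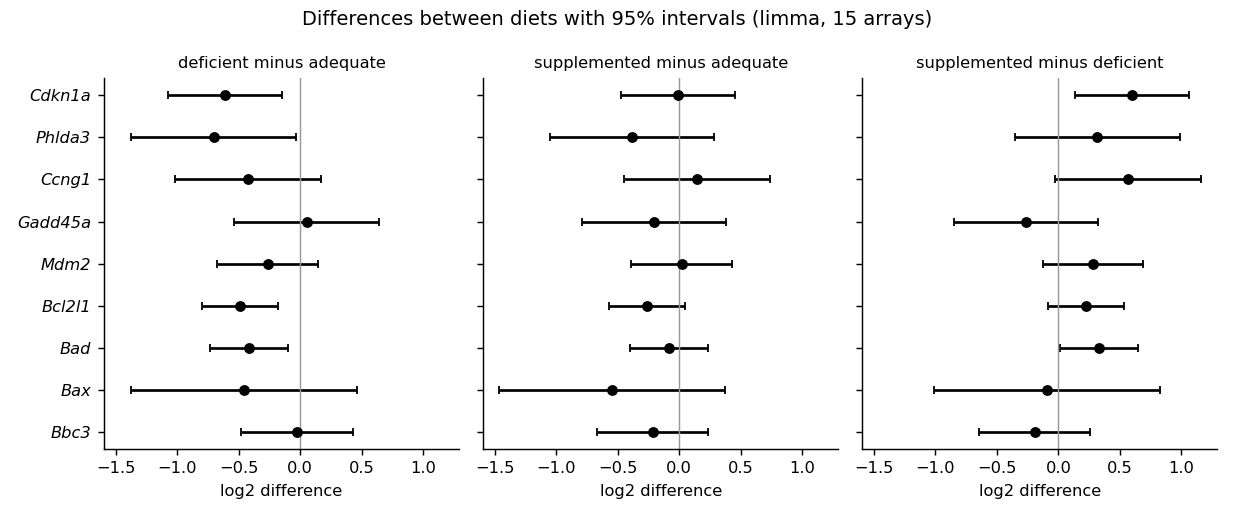
Log2 differences between diets for the 9 genes, with 95% intervals from limma over 15 arrays, as deficient minus adequate, supplemented minus adequate and supplemented minus deficient. For deficient minus adequate the intervals of Cdkn1a, Phlda3, Bcl2l1 and Bad end below 0, and those of Cdkn1a and Bad start above 0 for supplemented minus deficient. None of these genes passed the threshold after adjustment over 21011 probes.

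Bcl2l1 is the survival member of the set. Its long product, BCL-xL, binds and restrains Bax and its relatives, while a short splice form promotes death. Its level in deficient tumours was 2.19, 2.47, 2.48, 2.09 and 2.04, against 2.56, 2.95, 2.89, 2.74 and 2.57 in adequate tumours. Supplemented tumours had 2.42, 2.55, 2.61, 2.36 and 2.47. All 5 deficient tumours were below all 5 adequate tumours, which was so for 0.219% of the tested probes in that direction, and the supplemented tumours overlapped both. The means were 2.25 ± 0.21 in deficient and 2.74 ± 0.18 in adequate tumours (SD, n = 5 each). The log2 difference was -0.49 (SE 0.15, 95% interval from -0.80 to -0.18, limma, adjusted p = 0.987). Supplemented tumours averaged 2.48 ± 0.10, which was -0.26 from adequate (95% interval from -0.57 to 0.05) and 0.23 from deficient tumours (95% interval from -0.08 to 0.54).

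The Bcl2l1 values were among the least variable on the array. The SD of 0.17 between tumours of a diet was smaller than that of all but 2.12% of the tested probes. Within the 4 slides the deficient minus adequate difference was between -0.61 and -0.37, the supplemented minus adequate difference between -0.53 and -0.14, and the supplemented minus deficient difference between 0.07 and 0.43. Over 29 alternative settings the first difference lay between -0.59 and -0.36 and its adjusted p between 0.838 and 1.00. The value of -0.36 came without the 3 dimmest arrays, 2 of which are of deficient tumours.

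Other Bcl2l1 probes did not all show this. The shown probe is assigned to a different RefSeq transcript from the other 3. One of these, well above background on all 15 arrays, had levels of -0.15, -0.91, -1.14, -0.82 and -1.52 in deficient and -1.37, -0.84, -0.47, -1.10 and -0.99 in adequate tumours. Its groups overlapped throughout, with a log2 difference of 0.05 (95% interval from -0.49 to 0.59), and with -0.23 between supplemented and deficient tumours. The next, well above background on 7 arrays, differed by -0.47 between deficient and adequate tumours (95% interval from -1.01 to 0.06) and by 0.47 between supplemented and deficient tumours. The last, in 10 spots, was not well above background on any array and was not tested.

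**Figure D3:**
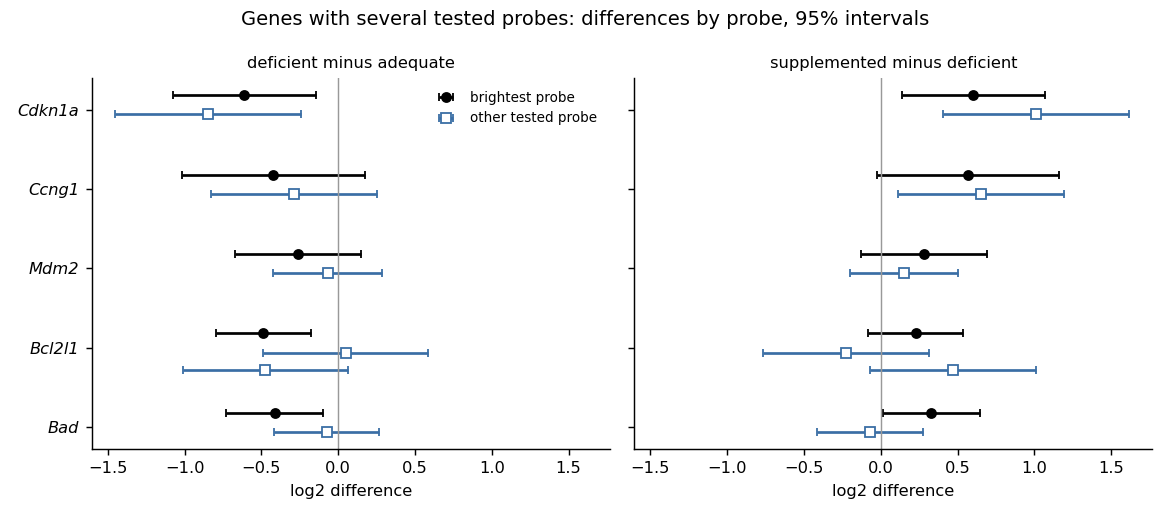
Log2 differences with 95% intervals for the 5 genes that had more than 1 tested probe, as deficient minus adequate and as supplemented minus deficient. Filled circles are the brightest probe of each gene, which the text shows, and open squares are its other tested probes. The 2 probes of Cdkn1a lie at -0.61 and -0.85 for deficient minus adequate, while the squares of Bad (-0.08) and of 1 Bcl2l1 probe (0.05) lie near 0.

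How far the probes of a gene ranked the 15 tumours alike was also measured, in 6 relations computed after the values were seen. The Ccng1 probes agreed closely, with r = 0.93 and rho = 0.91 (adjusted permutation p = 6e-05 for both). The Cdkn1a probes had r = 0.63 (adjusted permutation p = 0.0336) and rho = 0.70 (adjusted permutation p = 0.0142), and r = 0.58 without deficient replicates 2 and 5. For the Bad probes r was 0.43 and rho 0.43 (adjusted permutation p = 0.220 and 0.176), and r was 0.21 without deficient replicates 2 and 3. The shown Bcl2l1 probe had r = 0.18 and rho = 0.26 with the brighter of the others (adjusted permutation p = 0.610 and 0.422) and r = 0.30 and rho = 0.43 with the dimmer (adjusted permutation p = 0.404 and 0.176). Without deficient replicate 5 and adequate replicate 2 these r were -0.04 and 0.82. The Mdm2 probes had r = -0.08 and rho = 0.17 (adjusted permutation p = 0.780 and 0.549).

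Among the death genes, Bad encodes a BH3-only protein that, when unphosphorylated, displaces BCL-xL from Bax. Its level was 0.73, 0.45, 0.59, 0.83 and 1.04 in deficient and 0.93, 1.09, 1.19, 1.25 and 1.24 in adequate tumours. In supplemented tumours it was 0.87, 0.96, 1.07, 1.30 and 1.08. All deficient tumours except replicate 5 lay below every adequate and every supplemented tumour. The log2 difference was -0.41 between deficient and adequate tumours (SE 0.15, 95% interval from -0.73 to -0.10, limma, adjusted p = 0.987). Supplemented tumours differed from deficient ones by 0.33 (95% interval from 0.01 to 0.65, limma, adjusted p = 0.703) and from adequate ones by -0.08 (95% interval from -0.40 to 0.23). Bad, like Bcl2l1, varied little, with an SD of 0.18 within a diet, and only 2.80% of tested probes varied less. On the 4 slides the deficient minus adequate difference was between -0.64 and -0.20. A second Bad probe, well above background on all 15 arrays, gave -0.08 (95% interval from -0.42 to 0.27) and -0.07 (95% interval from -0.41 to 0.27) for supplemented minus deficient. These values are smaller than those of the shown probe, and the difference between the probes was not tested.

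Bax encodes the pore-forming effector of the mitochondrial pathway. Its level was -1.43, -0.40, 0.23, 0.72 and 0.12 in deficient, 0.19, 0.99, -0.41, 0.64 and 0.10 in adequate, and -0.49, -1.14, 0.51, 0.84 and -0.94 in supplemented tumours. The spread was wide in every diet, and deficient replicate 1, the lowest, was not well above background. The log2 difference was -0.46 between deficient and adequate tumours (95% interval from -1.37 to 0.46), -0.55 between supplemented and adequate tumours (95% interval from -1.47 to 0.37) and -0.09 between supplemented and deficient tumours (95% interval from -1.01 to 0.83). Without deficient replicate 1 the first of these was -0.14. The SD of 0.76 between tumours of a diet exceeded that of 91.5% of tested probes. The 10 spots of its probe on an array had a median SD of 0.15, which covers spot noise within an array only.

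Bbc3 encodes PUMA, a BH3-only protein that p53 induces directly. Its level was 2.49, 2.01, 2.98, 2.23 and 2.04 in deficient, 2.28, 2.88, 2.25, 2.22 and 2.24 in adequate, and 2.07, 2.01, 2.67, 2.07 and 1.97 in supplemented tumours. Apart from 1 or 2 high tumours in each diet the values lay close together. Deficient and adequate tumours differed by -0.02 (95% interval from -0.48 to 0.43), supplemented and adequate tumours by -0.22 (95% interval from -0.67 to 0.24) and supplemented and deficient tumours by -0.19 (95% interval from -0.65 to 0.26). The value depends on how background is treated in 1 spot. On the array of supplemented replicate 4 the single Bbc3 spot had a median signal of 528 and a local background of 9650.5, where the local background on the other 14 arrays was between 33.5 and 54.5. The processed signal used here was 476 for that spot. In the authors' deposited values that tumour was at 3.64, against 8.72 to 10.0 in the others, and the supplemented minus adequate difference was -1.28. Without that tumour it was -0.20 in the deposited values. The background-corrected alternative (normexp) gave -0.82, and -0.18 once spots with such a background were set to missing. Of the 10 Cdkn1a spots on that array, 1 had a local background of 7098.

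The death and survival members were also set against each other within each tumour, as a description without a test, reading only how the difference moves between diets because the probes differ in brightness. Bbc3 minus Bcl2l1 averaged 0.09 ± 0.37 in deficient and -0.37 ± 0.22 in adequate tumours (SD, n = 5 each), a shift of 0.46. Bbc3 alone differed by -0.02 between these diets, so the shift rests on the shown Bcl2l1 probe, which differed by -0.49. The other Bcl2l1 probe that was well above background on all 15 arrays differed by 0.05 and was not used here. For the shown probes, the values of Bbc3 minus Bcl2l1 follow. In supplemented tumours it averaged -0.33 ± 0.24, which was -0.42 from deficient tumours. The deficient tumours ran from -0.47 to 0.50 and overlapped the adequate ones, which ran from -0.64 to -0.07. Bad minus Bcl2l1 shifted by 0.07 and Bax minus Bcl2l1 by 0.03 between deficient and adequate tumours. These 2 pairs moved by less than the SD between tumours.

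As a test of any difference among the diets, the limma F test had an adjusted p of 0.990 for each of the 9 genes and called 0 probes (0%), with 847 at an unadjusted p under 0.05 (4.03%). As a slope over log2 dietary zinc, Cdkn1a was at 0.11 per log2 unit (limma, adjusted p = 0.586), Bad at 0.06 (limma, adjusted p = 0.622) and Ccng1 at 0.10 (limma, adjusted p = 0.643). The slope called 0 probes (0%) and had 1617 at an unadjusted p under 0.05 (7.7%). For Cdkn1a and Bad the adequate and supplemented means lay side by side, so a straight line describes them only in part.

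Single tumours were then compared across genes, to ask whether the members move together from tumour to tumour. Of the 36 pairs, 32 had a positive Pearson r, with a median of 0.35 and a range from -0.27 to 0.71. The share of positive r among pairs of other probes was not computed, so this count does not set the members apart from other genes. None passed a permutation test after adjustment over the 36 pairs (0 with Pearson, 7 at an unadjusted p under 0.05), while 3 pairs passed with Spearman's rho, which was added after the values were seen. The closest pair was Cdkn1a and Ccng1, with r = 0.71 (permutation p = 0.00357, adjusted p = 0.0788) and rho = 0.75 (adjusted permutation p = 0.0307). It had r = 0.60 once the diet means were removed, 0.59 after diet and slide, and 0.62 without deficient replicates 2 and 5. Cdkn1a and Bad had r = 0.69 (permutation p = 0.00438, adjusted p = 0.0788) and rho = 0.74 (adjusted permutation p = 0.0307), and r = 0.39 after diet and 0.76 without the same 2 tumours. Bax went with Phlda3 at r = 0.64 (rho = 0.56, adjusted permutation p = 0.0977 and 0.177) and with Gadd45a at r = 0.60 (rho = 0.73, adjusted permutation p = 0.125 and 0.0307). After diet these were 0.62 and 0.62, and without the 2 tumours farthest from the median of Phlda3 or of Gadd45a they were 0.68 and 0.48. Bcl2l1 and Bad, which differed between diets in the same direction, had r = 0.35, and -0.50 after diet.

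**Figure D4:**
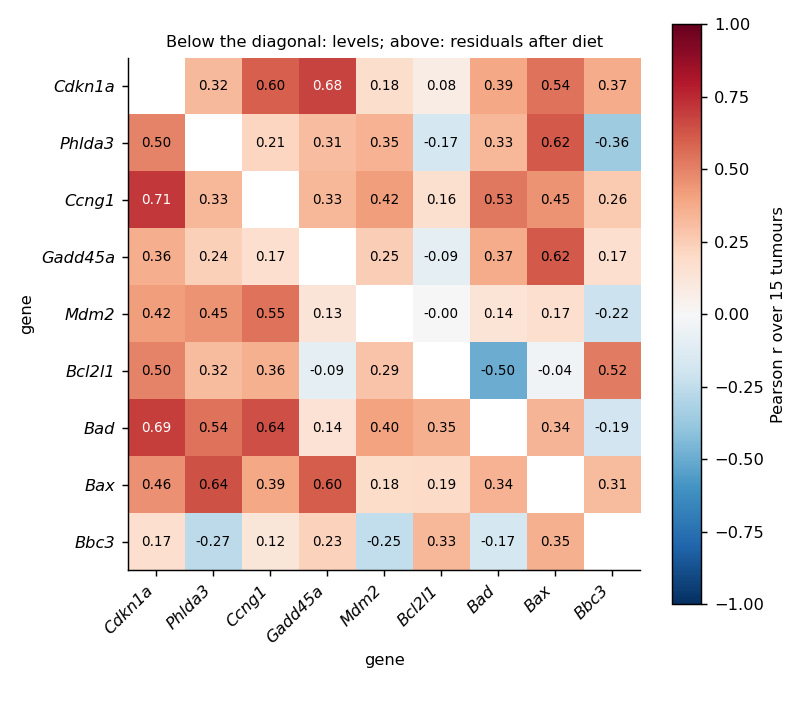
Pearson correlation over the 15 tumours for every pair of the 9 genes, with the levels below the diagonal and the residuals after removal of the diet means above it. Most cells are positive, with Cdkn1a and Ccng1 highest at 0.71. The cell of Bcl2l1 and Bad is 0.35 below the diagonal and -0.50 above it.

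Bax correlated with the mean level of 1 list of cell type markers. Of 99 relations computed after the values were seen, between each of the 9 genes and array brightness or the mean level of 1 of 10 cell type lists, 1 passed adjustment over the 99. Bax correlated with the mean level of the adipocyte markers at r = -0.77 (permutation p = 0.00043, adjusted p = 0.0426) and rho = -0.71 (permutation p = 0.00415). The mean adipocyte level was 2.89, 0.52, 0.08, -1.04 and 0.72 in deficient, -0.55, -0.32, 0.17, -0.23 and 0.12 in adequate, and -0.40, 0.39, -0.28, -0.48 and 2.19 in supplemented tumours. Deficient replicate 1 and supplemented replicate 5 stood far above the rest, and both had low Bax. Without these 2 tumours r was -0.58 over 13 tumours, and within diets and slides it was -0.75. The list rests on 3 of 7 markers (Adipoq, Lpl and Cfd). Of these, Adipoq was well above background on only 6 arrays, Lpl on 14 and Cfd on 15. Fabp4 was well above background on 3 arrays, Cidec and Lep were so on none, and Plin1 was not matched to a probe. Cdkn1a had r = -0.30 with array brightness, and -0.66 after diet. The largest other relation, Ccng1 with fibroblast genes at r = 0.62, had an adjusted permutation p of 0.700.

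**Figure D5:**
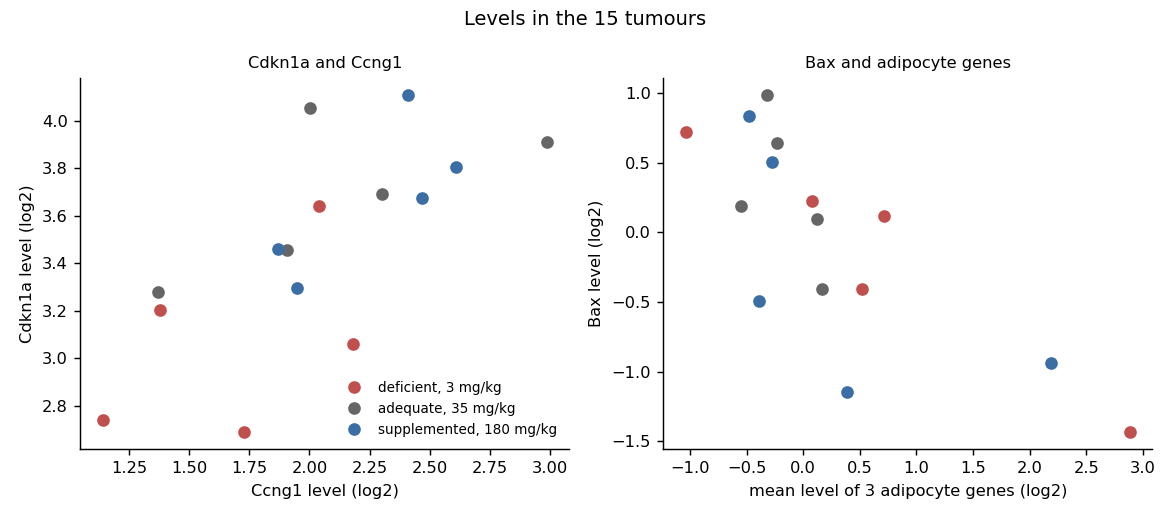
Levels in the 15 tumours, coloured by diet. Left, Cdkn1a against Ccng1 (r = 0.71). Right, Bax against the mean level of 3 adipocyte genes (r = -0.77), where deficient replicate 1 (2.89) and supplemented replicate 5 (2.19) stand apart on the horizontal axis and carry Bax levels of -1.43 and -0.94. All axes are log2 levels over the array's 75th percentile.

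The genes most like each member were found by Pearson correlation over the 15 tumours among 8314 named genes, as a description. Nearest to Cdkn1a were the actin-binding gene Dbn1 (r = 0.87), the clathrin light chain gene Cltb (0.85), Pigt (0.83), the glycolytic gene Gapdh (0.83) and the ribosome factor Eif6 (0.82). Nearest to Bcl2l1 were Parp3 (0.80), Or3a4 (0.77), F11r (0.75), Ilvbl (0.75) and Megf6 (0.74). Among the nearest to Bax were Hax1 (0.84), Emc10 (0.83), Usp2 (0.83) and the amino acid transporter gene Slc7a5 (0.83). No other member was among them. Array brightness and tissue composition varied between the tumours, and their part in these correlations was not tested.

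The wider pathway was read from 6 lists of 95 gene symbols, of which 60 were measured. Trp53inp1 and Tp53inp1 among them are symbols of the same gene, which was measured under the latter. In limma 0 of the 60 passed in any comparison. Between deficient and adequate tumours 33 of the 60 were lower, where 50.7% of all tested probes were. The counts of lower genes in single lists below are of this comparison and stand beside the same share. Of the 60, 2 had an unadjusted p under 0.05, 1 lower and 1 higher, where 3.91% of all tested probes had one. Between supplemented and adequate tumours 24 were lower, against 51.2% of probes, and 0 had such a p, against 1.98% of probes. Between supplemented and deficient tumours 25 were lower, against 50.1% of probes, and 2 had such a p, both higher, against 7.05% of probes.

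Of the 9 measured genes of p53 and its regulators, 6 were lower in deficient than in adequate tumours, with a median of -0.15. Ppm1d, a phosphatase that switches p53 off and is itself a p53 target, differed by -0.70 (limma, adjusted p = 0.987), but stood above background in 1 deficient and 4 adequate tumours. Cdkn2a, whose ARF product restrains Mdm2, was 1.88 ± 0.47 in supplemented and 0.98 ± 0.66 in deficient tumours, a difference of 0.90 (limma, adjusted p = 0.708). The deubiquitinase gene Usp7 differed by 0.13 between deficient and adequate tumours.

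Of 14 measured other targets of arrest, repair and stress, 9 were lower in deficient tumours, with a median of -0.04. Zmat3, an RNA-binding p53 target, had its lowest mean in deficient tumours, as Cdkn1a did, with 2.98 ± 0.30 in deficient, 3.38 ± 0.43 in adequate and 3.74 ± 0.29 in supplemented tumours. Supplemented tumours differed from deficient ones by 0.75 (limma, adjusted p = 0.661). The polo-like kinase gene Plk2 differed by -0.46 and the antiproliferative gene Btg2 by 0.23 between deficient and adequate tumours. Of 8 measured targets of cell death, 6 were lower, with a median of -0.20. In the same comparison Perp differed by -0.00378, the inflammatory caspase gene Casp1 by 0.15 and Igfbp3 by -0.21.

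Of 5 other measured survival genes, 3 of the BCL2 family (Mcl1, Bcl2l2 and Bcl2a1) and the co-chaperone genes Bag1 and Bag3, 2 were lower in deficient than in adequate tumours, with a median of 0.02. Mcl1 differed by 0.02, Bag1 by 0.02 and Bag3 by -0.43, and Bcl2 was not well above background on any array. Of 6 other death genes of the family 4 were lower, with a median of -0.10. There Bak1, the relative of Bax, differed by -0.28, Bik by 0.40 and Bnip3l by -0.03. Of 18 measured caspases, their inhibitors and other factors of the death pathway, such as Cycs, Tradd, Diablo, Htra2, Aifm1 and Endog, 6 were lower, with a median of 0.05. Casp12, a caspase of the endoplasmic reticulum in rodents, was 1.33 ± 0.40 in deficient and 0.68 ± 0.46 in adequate tumours, a difference of 0.65 (limma, adjusted p = 0.987). Casp2 differed by 0.29, Diablo, which frees caspases from their inhibitors, by -0.26, and Aifm1 by 0.13.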

How the data were processed

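RNA of 15 rat mammary tumours, 5 per early-life diet, was measured on one-colour Agilent arrays. The deposited scanner files give a linear intensity per spot after background subtraction and detrending. The software was Agilent Feature Extraction, in version 11.5.1.1 per the file headers and 15.5 per the submitters' processing notes. The same deposited files carry marks for spots well above background, outlying or saturated, and 0 spots were saturated, per those marks. The authors also deposited a table of log2 values covering 30002 of 41012 probes, with a normalization not given in the sources used here. Array medians in it were 7.09 to 7.10, and it correlated with the log2 median spot signal at 0.984 to 1.00, so it was read as uncentred log2 values and used for an alternative fit.

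From each log2 processed signal the 75th percentile of its array was subtracted to give the level. Spots marked as outliers were left out and spots of a probe averaged, 0 values of the 9 shown probes being missing. Probes well above background on at least 5 arrays were tested (21011). A RefSeq table (GRCr8) named the genes of 17502 probes (42.7%) from their accessions. The array was designed on rn4, so no coordinates of probes are given. Diets were compared with limma 3.58.1 in R 4.3.3 (two-sided, with 12 residual degrees of freedom, a threshold of 0.05 and Benjamini-Hochberg adjustment over the tested probes), and correlations with two-sided permutation tests of 100000 resamples in scipy 1.17.1. The fit was tested on simulated data for deficient against adequate tumours, in 10 runs with 200 changed probes each. It recovered 47.1% of 2-fold and 92% of 4-fold changes, with a mean of 7.9 false calls per run. Smaller changes were not simulated, so a member that did not pass may still differ. The number of arrays limits the precision, with a median half-width of the 95% interval of 0.51.

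The 9 genes and all lists were chosen with earlier results of these data known. Named were the 9 genes, the 3 genes of each wider list with the highest mean level, those with an unadjusted p under 0.05, and the 5 genes most correlated with Cdkn1a, Bcl2l1 and Bax. Of the genes this rule names, 2 are not reported here. Alternatives covered background correction, scaling, dim probes, slide, scan day, replicate number, array weights, brightness, probe and single arrays. The normexp alternative (offset 50) was planned on mean spot signals and used median spot signals, the column at hand. Correlations of deviations between tumours of the same replicate number ran from -0.28 to 0.22. So few values cannot settle whether the numbers pair the tumours, and the block was used as an alternative only.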

Additional observations from a re-analysis of the deposited data

Results flagged for a closer look

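Of 27 sets of 5 tumours (9 genes in 3 diets), 3 had 1 tumour far from the others, by the gap to the nearest tumour relative to the whole range. Chance alone marks about 1 in 20 such sets. Mdm2 was at 2.22 in adequate replicate 4, with the nearest tumour at 1.79. Bbc3 was at 2.88 in adequate replicate 2, with the nearest tumour at 2.28, and that array is among the 3 with the fewest spots well above background. Bbc3 was also at 2.67 in supplemented replicate 3, where the nearest tumour was at 2.07.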

How the results depend on the processing

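Of 798 differences of the 9 genes under other settings, 750 kept their sign and 48 turned it, and 0 crossed the threshold (lowest adjusted p in limma 0.370). The 750 include settings that cannot move a difference of diet means. These are an array of the third diet left out, another filter on dim probes, and a fit of only the diets compared. The count therefore overstates how far the signs were put to the test. With the replicate number as a block the counts of called probes stayed at 0 in each comparison and the differences did not move (Cdkn1a -0.61 and Bcl2l1 -0.49 for deficient minus adequate), as each number occurs once per diet. Counts of called probes became 1 with array weights (deficient minus adequate, supplemented minus deficient, F test) and 1 with only the arrays of deficient and adequate tumours in the fit. Leaving out single arrays gave 0 to 1 for supplemented minus deficient and for the slope, the 1 coming without supplemented replicate 1. Called pairs of the 9 genes became 1 after diet and brightness and 3 with Spearman's rho.

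With the shown probes the sign turned only for differences between -0.19 and 0.15. Settings added after the values were seen are the deposited values without supplemented replicate 4 and normexp without spots of high local background. For supplemented minus adequate, Cdkn1a was at 0.0268 with scan day as a block, 0.0845 without the 3 dimmest arrays and 0.16 with its other probe, and from -0.13 to 0.0845 without single arrays (-0.12 without supplemented replicate 4). In that comparison Ccng1 was at -0.0178 with array weights and from -0.0395 to 0.37 without single arrays. Mdm2 was at -0.10 with normexp in both forms, -0.11 with the deposited values, -0.0167 with quantile scaling and -0.0111 with array weights, and from -0.0455 to 0.12 without single arrays. For deficient minus adequate, Gadd45a was at -0.10 with normexp in both forms, -0.11 with the deposited values in both forms, -0.0437 with slide as a block, -0.11 with array weights, -0.00789 with brightness as a covariate and -0.0676 without the dimmest arrays, and from -0.14 to 0.17 without single arrays. In that comparison Bbc3 was at 0.0897 with normexp and 0.0949 with the deposited values, in both forms, and 0.0953 without the dimmest arrays, and from -0.18 to 0.10 without single arrays, and Bcl2l1 was at 0.0486 with another probe. For supplemented minus deficient, Bax was at 0.00223 with normexp in both forms and from -0.41 to 0.13 without single arrays. There Bbc3 was at 0.0303 with array weights, Bcl2l1 at -0.23 and Bad at -0.0702 with another probe. The cause was not tested. The strict filter on dim probes gave no Bax value, since Bax was not well above background on 1 array.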

Other observations

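Local background stood out on arrays of the supplemented diet. Spots with a local background median over 1000 numbered 23 on supplemented replicate 4, 11 on replicate 5, 4 on replicate 1 and 2 on replicate 3, and 0 on supplemented replicate 2 and on all 10 arrays of the other diets. Of the 43 spots of the 9 genes, 2 were among those on supplemented replicate 4 and 0 on any other array. The Cdkn1a spot concerned had a median signal of 2201 and a processed signal of 1818, and is 1 of 10 that were averaged.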
